A study of Mus musculus with 40 samples.

Results

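The early response of wild-type mouse macrophages to lipopolysaccharide (LPS) was described by comparing 4 libraries made 3 h after LPS with 4 libraries made before it (0 h). These 8 libraries were chosen by their titles from the 40 of the study. Gene expression was measured by QuantSeq 3′ tag sequencing, which counts 1 tag near the 3′ end of each polyadenylated RNA copied, so that long and short transcripts of equal abundance give equal counts. The cells were bone marrow-derived macrophages, primary cells grown from marrow in medium conditioned by L929 cells, a fibroblast line that secretes the macrophage growth factor M-CSF. The mice of both groups carried a loxP-flanked Otulin gene and no Cre (OtulinFL/FL), so the gene was intact. These cells are called wild type (WT) here, as in the sample titles. The 3 h group had received 500 ng/ml of Ultrapure LPS from Salmonella minnesota and the 0 h group none. The other libraries were WT cells after 6, 12 and 24 h of LPS and cells with LysM-Cre at the same 5 times. The titles call the cells with LysM-Cre Otulin knock-out, and they are called KO here. Each group had 4 replicates, which the study's design text calls biological. An untreated 3 h culture was not analysed here, so the effect of LPS cannot be told apart from that of 3 more hours in culture or of the time of day. The sources used here give neither the age nor the number of the mice, nor whether a replicate number marks the same mouse at both times.

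LPS, a cell wall component of Gram-negative bacteria, is handed by CD14 to the receptor complex of TLR4 and MD-2 (Ly96). The adaptor MyD88 leads from there to the transcription factor NF-κB and to MAP kinases. The adaptor TRIF (Ticam1) leads to IRF3, which switches on the gene for interferon-β, and the secreted interferon then acts back on the cells through JAK kinases and STAT factors. Genes that feed back on these pathways, such as those for IκBα, A20, SOCS proteins and RNA-binding proteins that shorten the life of cytokine mRNA, are among their own targets.

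Libraries held 3956750 to 5915946 counts, and levels are given as CPM, the counts of a gene scaled to a common library total, after TMM scaling, a scaling that assumes most genes to be unchanged. Macrophage markers were abundant: the 12 genes summed to 5604 to 6175 CPM at 0 h and 6317 to 7559.9 at 3 h, with the lysozyme gene Lyz2 at 2612 ± 141 CPM (mean ± SD, n = 4) and the receptor gene Csf1r at 502 ± 14.1 CPM at 0 h. Of these 12 genes 4 were called higher and 1 lower, or 3 and 5 when scaled by library totals alone. Among 12 neutrophil markers, Ly6g and Retnlg had 0 counts in all 8 libraries and 6 others were below the filter on low counts. The list summed to 208 to 235 CPM at 0 h and 241 to 281 at 3 h, mostly from the protease gene Mmp8 (185 CPM at 0 h), and S100a8, S100a9 and Ngp were called higher (by 0.97, 1.06 and 1.04 log2). Of 8 monocyte markers 6 rose and 1, Ccr2, fell, and the list summed to 134 to 180.3 CPM at 0 h and 247 to 276 at 3 h. The matrix proteoglycan gene Vcan went from 2.63 to 85 CPM of that sum. Of 10 T and NK cell markers Cd3e had 0 counts and 2 passed the filter, of which Lck, with 9 counts at 0 h and 110 at 3 h, was called higher, and the list summed to 2.48 to 4.58 CPM at 0 h and 6.74 to 9.99 at 3 h. Of 7 B cell markers Cd79a had 0 counts and Ighm, with 765 and 434 counts, passed the filter and was not called, and the list summed to 27.6 to 40.4 CPM at 0 h and 23.6 to 30.6 at 3 h. None of 7 mast cell and basophil markers passed the filter. Of 7 dendritic cell markers 2 passed and 1 was called higher. That list summed to 1.66 to 3.33 CPM at 0 h and 6.98 to 10.8 at 3 h. Of 9 stromal and endothelial markers 4 passed, 2 rose and 1 fell. Their list summed to 43.8 to 55.8 and 36.3 to 46.4 CPM. Of 8 red cell and platelet precursor markers only Pf4 passed, with 16335 and 14763 counts, and was not called. With it the list summed to 527 to 829 and 698 to 1108 CPM. The part of other cells in the results was not tested. In bulk samples, fewer cells of a type and less RNA per cell cannot be told apart.

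The libraries of a time were not alike in their level of LPS-inducible genes. Replicate 1 was the lowest of the 4 for 39 of 54 antiviral interferon-stimulated genes at 0 h and 34 at 3 h, and for 15 of 18 interferon-inducible GTPase genes at 0 h and 11 at 3 h. The 54 genes summed to 1579, 1889, 2100.0 and 2045 CPM in the 4 libraries at 0 h and to 31545, 30506, 33163 and 38445 CPM at 3 h. This spread is small beside the distance between the times. Folds of single genes with a low 0 h level move with replicate 1 at 0 h. Without it the log2 fold change was 8.56 ± 0.35 for Cxcl9, 9.16 ± 0.58 for Edn1, 7.21 ± 0.23 for Cish, 7.56 ± 0.34 for Nos2, 7.51 ± 0.56 for Ptgs2, 4.63 ± 0.30 for Nr4a3 and 4.94 ± 0.21 for Irf7, and the same value stands beside 6 other genes below. Replicate 4 was the lowest for 34 of 36 mitosis genes at 0 h and 34 at 3 h.

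Of 12151 genes tested with edgeR's quasi-likelihood test, 6640 passed an adjusted p of 0.05 (54.6%). Called higher at 3 h were 3235 genes (26.6%) and called lower 3405 (28.0%). Past 2-fold 1367 genes rose (11.3%) and 1216 fell (10.0%), and past 4-fold 721 rose (5.93%) and 233 fell (1.92%). The genes that rose over 4-fold held 1.4 to 1.49% of all counts at 0 h and 12.6 to 14.1% at 3 h. That gain makes every other gene a smaller share of its library, and the scaling decides how it is allowed for. With upper quartile scaling the calls split into 2238 higher and 5301 lower, and with library totals alone into 1863 and 6893. Past 2-fold these scalings gave 1186 higher and 1732 lower and 1055 higher and 2178 lower, which turns the balance, and past 4-fold 633 and 326 and 584 and 418, which does not. The median log2 fold change of all genes was −0.05 with TMM, and it moved by −0.21 and −0.36 under these 2 scalings. Changes smaller than that shift have no firm sign, so the calls of a list with library totals are given beside those with TMM wherever they differ in balance. Both are to be read against all genes tested. These split into 26.6% higher and 28.0% lower with TMM, and into 1863 higher and 6893 lower of 12151 with library totals. The 4 libraries of the times did not overlap for 6405 of the tested genes (52.7%). They did not overlap either for 44 of the 45 genes given library by library below, which were chosen with their results known. Sizes after rose or fell are log2 fold changes, and a value after ± beside them is the standard error.

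**Figure D1:**
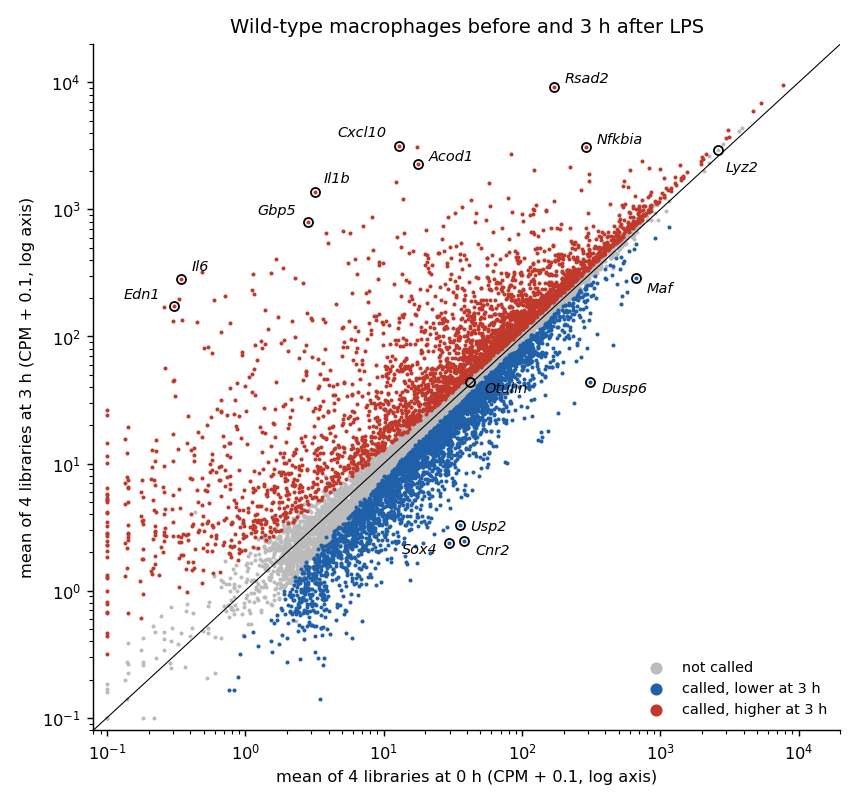
Mean level of each of the 12151 tested genes at 0 h (horizontal) and 3 h (vertical), in CPM plus 0.1 on log axes, with genes called higher in red, called lower in blue and not called in grey. Genes near 0 at 0 h, such as Il6 and Edn1, lie above 100 CPM at 3 h, while the falls, such as Cnr2 and Dusp6, start from moderate levels.

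Genes for secreted inflammatory cytokines rose steeply. Of 29 cytokine genes on the list, 23 passed the filter on low counts and are called measured, 20 rose, all of them over 2-fold, and 0 fell, with a median log2 fold change of 4.97 against −0.05 for all genes tested. The filter covered all WT times, so members near 0 at 0 h passed it through their level after LPS, and counts of measured members are descriptions here and in the lists that follow. Tnf, the gene for tumour necrosis factor, lay at 24.8, 25.2, 27.3 and 30.3 CPM at 0 h and at 849, 649.8, 732 and 749 CPM at 3 h. The groups were far apart, and Tnf rose by 4.79 ± 0.23 log2 (SE, adjusted p = 3.78e-12), a 27.7-fold change. Il1b, which encodes the inflammasome-dependent cytokine IL-1β, was at 0.832, 3.53, 3.81 and 4.12 CPM and then 1196, 1205, 1413 and 1643 CPM. It had the highest 3 h level of the list, and its rise of 8.82 ± 0.40 log2 was 8.47 ± 0.41 without replicate 1 at 0 h. Il6, the gene for the fever and acute-phase cytokine IL-6, had 6 counts over the 4 libraries at 0 h (0.139, 0.672, 0 and 0.159 CPM) and lay at 289.7, 292, 290.1 and 269.8 CPM at 3 h. Its log2 fold change of 10.09 ± 0.77 was the largest among genes with more than 3 counts at 0 h, and the low start makes its size uncertain.

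Il12b and Il1a, which encode the shared p40 chain of IL-12 and IL-23 and the cell-associated alarmin IL-1α, started similarly low. Il12b was at 0.416, 0.504, 0.166 and 0.476 CPM at 0 h and 379, 324, 286 and 294 CPM at 3 h. Il1a was at 0.277, 0.168, 0.331 and 0.159 CPM at 0 h and 197, 188, 194 and 215 CPM at 3 h. The rises were 9.58 ± 0.74 and 9.57 ± 0.35 log2, and in both genes every 3 h library was above every 0 h library. Il10 and Il1rn, whose products restrain inflammation, rose by 6.26 ± 0.47 and 3.45 ± 0.18, and the T cell regulator gene Il27 by 8.49 ± 0.27. Il15, a growth factor for NK and memory T cells, rose by 4.97, the macrophage growth factor gene Csf1 by 3.09, and the TNF family genes Tnfsf15 and Tnfsf9 by 7.60 and 4.56 log2. The interferon-β gene Ifnb1 had 0 counts at 0 h and 5.05 ± 2.19 CPM at 3 h. Osm, Tnfsf13b and Tgfb1 were not called (0.38 ± 0.28, 0.33 ± 0.27 and 0.05 ± 0.10). Il12a, Il23a, Lif, Csf2 and Csf3 were too low to test.

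Chemokine genes, whose products attract leukocytes, rose almost as a whole: 19 of 21 measured members rose, 1 fell and the median was 3.96 (17 higher and 1 lower with library totals). Cxcl10, a ligand of CXCR3 on activated T cells, was at 2.64, 16.5, 18 and 14.3 CPM at 0 h and 3268, 2808, 3191 and 3358 CPM at 3 h. Replicate 1 was low at 0 h, and the rise of 7.97 ± 0.33 log2 became 7.60 ± 0.18 without it. Cxcl9, another CXCR3 ligand, went from 0, 0.168, 0.662 and 0.159 CPM to 149, 109, 145 and 135 CPM, a rise of 9.00 ± 0.33 log2 from 6 counts. The neutrophil attractants Cxcl1, Cxcl2 and Cxcl3 rose by 7.63, 5.86 and 7.60 log2. Monocyte and T cell attractants rose from higher starts, Ccl2 by 2.62 from 306 CPM, Ccl3 by 4.33 from 46.3 CPM, Ccl4 by 3.96 from 79 CPM and Ccl5 by 6.48 from 13.8 CPM. The exception was Cxcl14, which fell by 1.25 log2. Ccl6, among the most abundant chemokine genes before LPS at 695 CPM, gave 0.28 ± 0.12, a called difference smaller than the shift between scalings.

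Among 24 measured genes for growth factors, vasoactive peptides and matrix enzymes, 17 rose and 4 fell (12 and 4 with library totals), with a median of 0.94. Edn1, the gene for the vasoconstrictor endothelin-1, lay at 0, 0.504, 0 and 0.317 CPM at 0 h and 186, 165, 159 and 179 CPM at 3 h. Adamts4, which encodes an aggrecan-cleaving protease, lay at 0.139, 0.168, 0.166 and 0.159 CPM and then 160.2, 165, 165 and 188 CPM. Both started from 5 or fewer counts over the 4 libraries and every 3 h library exceeded 100 CPM. Regulators of clotting and fibrinolysis also rose, the tissue factor gene F3 by 3.49 and Serpinb2 by 5.57 log2, while the urokinase gene Plau fell by 0.98. The stress cytokine gene Gdf15 fell by 1.86 and the angiogenic factor gene Vegfa by 1.64 log2.

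The gene for the LPS receptor itself fell while most genes of its pathway rose. Tlr4 fell by 1.08 log2, from 70.1 ± 5.96 to 33.2 ± 3.89 CPM, while its partners Cd14 and Ly96 rose by 2.39 and 0.55. Of 30 measured genes of the Toll-like receptor pathway 22 rose and 5 fell, or 17 and 8 with library totals, and the median was 0.76. Tlr2, the receptor for bacterial lipoproteins, was at 46, 50.5, 45.5 and 51.2 CPM at 0 h and 585, 473, 529.9 and 536 CPM at 3 h. Its rise of 3.46 ± 0.09 log2 was the largest of the list, followed by the kinase gene Ikbke (2.52 ± 0.09) and the double-stranded RNA receptor gene Tlr3 (2.42 ± 0.12). The adaptor gene Myd88 rose by 2.22 and Irak3, which encodes an inhibitory member of its kinase family, by 1.05. For the other adaptor, Ticam1, the value was 0.01 ± 0.13 and no call was made. Tlr13, a receptor for bacterial ribosomal RNA, fell by 1.15.

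Of 35 measured cytokine receptor genes 21 rose and 4 fell (18 and 11 with library totals), with a median of 0.55. Cd40, the costimulatory receptor that T cells engage, was at 4.72, 6.21, 6.29 and 5.08 CPM at 0 h and 617, 584, 614 and 788 CPM at 3 h, a rise of 6.87 ± 0.14 log2. Il15ra, which presents IL-15 to neighbouring cells, rose by 4.90, the death receptor gene Fas by 2.90, the TNF receptor gene Tnfrsf1b by 2.27 and Il10ra by 1.79. Il6ra and Il21r fell by 1.37 and 1.48. Csf1r, the M-CSF receptor on which these cultures depend, was not called (−0.08 ± 0.07).

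G protein-coupled receptor genes divided into a rising and a falling set. Of 38 measured members 18 rose and 12 fell, 15 and 11 of them past 2-fold, against 16 and 15 calls with library totals, under which the median turned from 0.15 to −0.20. Ccrl2, an atypical receptor that holds the chemoattractant chemerin, was at 10.5, 8.56, 8.94 and 8.72 CPM at 0 h and 455, 372, 347 and 378 CPM at 3 h. It rose by 5.39 ± 0.21 log2, and beside it the formyl peptide receptor genes Fpr1 and Fpr2 rose by 4.98 and 4.79, the fatty acid receptor gene Gpr84 by 4.13 and the adenosine receptor gene Adora2b by 2.78. Cnr2, the cannabinoid receptor of immune cells, lay at 42.4, 35.1, 36.9 and 38.1 CPM at 0 h and 1.86, 2.67, 3.37 and 1.62 CPM at 3 h. The 2 sets of values did not come near each other, and the fall of 3.97 log2 was the largest of the list. With it fell Lpar6 (by 3.12), the chemokine receptor genes Cxcr4 (by 2.95), Cx3cr1 (by 1.43) and Ccr2 (by 1.03), and S1pr1, which guides egress towards sphingosine-1-phosphate (by 1.91).

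Scavenger, Fc and lectin receptor genes changed less: 13 of 29 rose, 3 fell and 13 were not called, with 10 higher and 8 lower by library totals, under which the median turned from 0.28 to −0.08. Clec4e, the receptor Mincle for mycobacterial glycolipids, was at 45.6, 47.4, 48.5 and 42.2 CPM at 0 h and 884, 777, 756 and 763 CPM at 3 h, a rise of 4.11 ± 0.18 log2. The oxidised lipoprotein receptor gene Olr1 rose by 5.53, the Fc receptor genes Fcgr1 and Fcgr2b by 2.09 and 1.26, and Msr1 by 1.02. The efferocytosis receptor gene Mertk fell by 0.47 while its relative Axl rose, from 20.3 ± 3.09 to 50 ± 6.26 CPM.

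**Figure D2:**
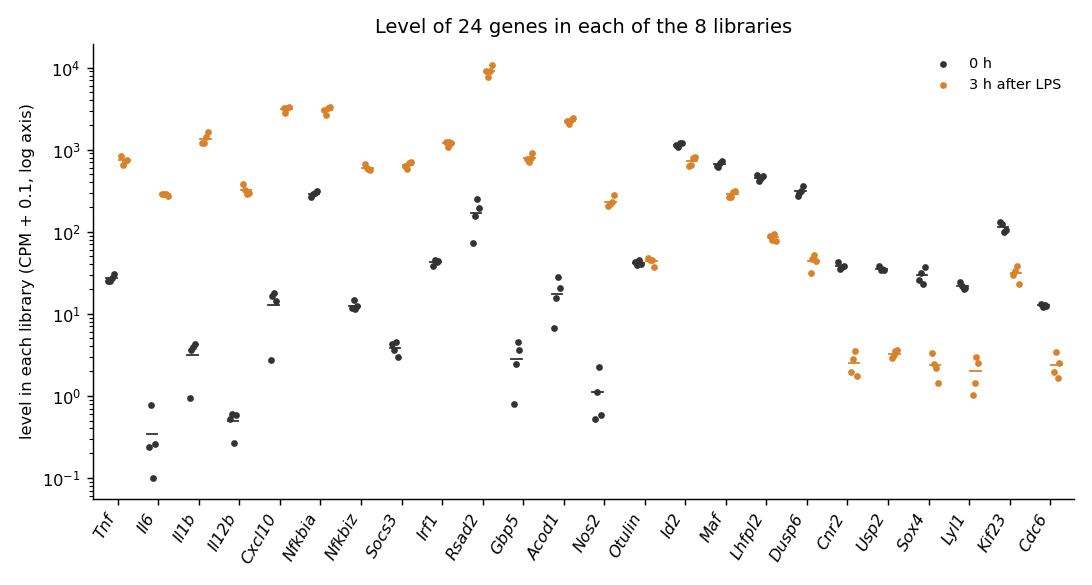
Level of 24 genes (horizontal) in each of the 4 libraries at 0 h (black) and 3 h after LPS (orange), in CPM plus 0.1 on a log axis, with a line at each group's mean. The groups are apart for every gene shown except Otulin, and replicate 1 lies below the other 0 h libraries for Cxcl10, Il1b, Gbp5 and Acod1.

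Most genes of the NF-κB system were higher at 3 h. Of 30 genes for its subunits, kinases and inhibitors 26 rose, 22 of them over 2-fold, and 2 fell, with a median log2 fold change of 2.35. Nfkbia, which encodes the inhibitor IκBα, was at 262, 285, 294 and 314 CPM at 0 h and 3059, 2660.2, 3216 and 3351 CPM at 3 h. This rise of 3.41 ± 0.09 log2 was the fourth largest gain in CPM of all genes. Nfkbiz, which encodes the nuclear IκBζ needed for secondary targets such as Il6, went from 11.7, 14.4, 11.4 and 12.2 CPM to 678, 595, 579.9 and 569.5 CPM, a rise of 5.61 ± 0.14 log2. The deubiquitinase gene Tnfaip3 (A20) rose by 4.06 ± 0.26 and its partner genes Tnip1 and Tnip3 by 2.25 ± 0.10 and 4.83 ± 0.21. All 5 subunit genes rose, Nfkb2 by 3.52, Relb by 2.83, Nfkb1 by 2.61, Rel by 2.44 and Rela by 1.64. Map3k14, the kinase NIK of the non-canonical pathway, fell by 1.69, and Chuk and Ikbkg were not called (0.01 ± 0.12 and 0.14 ± 0.08).

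The promoter windows of 3 strongly rising genes show the motif to which NF-κB binds. The windows run from 250 bases before to 50 after a RefSeq start (GRCm38.p6) and were chosen for printing because they hold matches. Capitals mark matches, on either strand, to the κB-type motif GGNNNTTCC, the interferon-stimulated response element (ISRE) type GAAANNGAA or the AP-1-type TGANTCA. Matches may overlap, and the CRE-type TGACGTCA was searched as well. Nfkbia holds 3 κB-type matches and 1 ISRE-type match (chr12:55492598-55492897, minus strand), Cxcl1 holds 2 κB-type matches (chr5:90890995-90891294, plus strand), and Cxcl10 holds 2 κB-type, 1 ISRE-type and 1 AP-1-type match (chr5:92348840-92349139, minus strand).
Nfkbia: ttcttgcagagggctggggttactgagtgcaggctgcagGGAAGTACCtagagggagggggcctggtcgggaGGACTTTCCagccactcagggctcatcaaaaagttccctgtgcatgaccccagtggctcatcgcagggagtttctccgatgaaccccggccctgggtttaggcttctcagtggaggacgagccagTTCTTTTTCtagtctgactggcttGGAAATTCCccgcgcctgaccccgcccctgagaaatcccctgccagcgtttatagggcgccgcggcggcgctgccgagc
Cxcl1: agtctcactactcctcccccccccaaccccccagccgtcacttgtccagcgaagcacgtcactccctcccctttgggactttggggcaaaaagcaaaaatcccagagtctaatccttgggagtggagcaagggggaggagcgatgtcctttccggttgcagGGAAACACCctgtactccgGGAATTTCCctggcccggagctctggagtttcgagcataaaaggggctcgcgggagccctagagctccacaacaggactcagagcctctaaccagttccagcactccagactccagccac
Cxcl10: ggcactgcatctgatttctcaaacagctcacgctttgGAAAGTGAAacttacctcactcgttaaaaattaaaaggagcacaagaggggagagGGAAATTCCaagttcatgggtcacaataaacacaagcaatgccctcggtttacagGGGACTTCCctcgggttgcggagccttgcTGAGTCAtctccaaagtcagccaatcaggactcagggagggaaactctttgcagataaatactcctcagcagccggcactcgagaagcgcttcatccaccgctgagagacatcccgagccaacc
The κB-type motif was in 21 of 35 windows (60%) of the 25 NF-κB system genes with a window and in 8 of 14 (57.1%) for 14 chemokine genes. The other lists searched had lower shares. These were 38.1% for cytokine genes, 30.8% for antiviral genes, 27.3% for GTPase genes, 27.3% for mitosis genes and 12.5% for clock genes. All 32851 windows of the table held it in 18.5%, those of genes tested in 22.4%, those of genes up over 4-fold in 23.8% and those of genes down over 4-fold in 16.3%. Windows differ in base composition, with a median GC content of 61.7% for the NF-κB list, 49.5% for chemokines and 60.7% for genes tested. A match in these letters is a description of the sequence and not a bound site.

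Otulin, the gene that carries loxP sites in these mice, encodes the enzyme that removes linear ubiquitin chains. It lay at 42.9, 38.8, 45.4 and 40.3 CPM at 0 h and 48.4, 45.3, 44.6 and 36.7 CPM at 3 h. The values overlapped, and no change was called (0.07 ± 0.10 log2, adjusted p = 0.598), although the sign turned with upper quartile scaling (−0.14) and with library totals (−0.29), which called it lower. In the linear ubiquitin machinery 9 of 14 genes rose and 1 fell, but 4 and 5 with library totals, under which the median turned from 0.29 to −0.07. The ligase gene Rnf31 (HOIP), which builds linear chains, rose by 2.69 ± 0.12, its partner genes Rbck1 and Sharpin gave 0.08 ± 0.10 and 0.04 ± 0.11 and were not called, and Otulinl, a catalytically inactive relative of Otulin, fell by 1.35. Tnfaip2, an NF-κB target of this list, lay at 213, 219, 239.8 and 221 CPM at 0 h and 2216, 1934, 2167 and 2339.7 CPM at 3 h, among the 8 largest gains in CPM of all genes.

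The inhibitors that cytokines themselves induce rose steeply. Socs3, which blocks signalling by the IL-6 receptor, was at 4.16, 3.53, 4.47 and 2.85 CPM at 0 h and 641, 586, 694 and 702 CPM at 3 h. Cish, an inhibitor of STAT5 signalling, was at 0.139, 0.84, 0.828 and 0.476 CPM and then 123, 99.4, 112 and 102 CPM. Their rises were 7.44 ± 0.17 and 7.57 ± 0.22 log2, and Socs1, which blocks interferon signalling, rose by 6.67 ± 0.19. Of the list 7 of 14 genes rose and 3 fell, or 7 and 6 with library totals (median 0.89 with TMM). Socs5, Socs6 and Pias3 fell by 0.48, 0.80 and 0.76.

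The phosphatases that switch off MAP kinases went in opposite directions. Dusp2 was at 17.8, 19, 24 and 21.6 CPM at 0 h and 421, 370.2, 462 and 486 CPM at 3 h. Dusp6, which acts on ERK, was at 273, 298, 311 and 365 CPM at 0 h and 31.2, 46.9, 52.6 and 43.5 CPM at 3 h. Dusp2 rose by 4.40 ± 0.11 log2 and Dusp6 fell by 2.84, with no overlap in either gene. Dusp1, Dusp14 and Dusp16 rose by 1.90, 2.98 and 2.49, whereas Dusp7 and the ERK pathway inhibitor gene Spry2 fell by 0.84 and 1.53. In all 6 of 13 rose and 5 fell, or 6 and 7 with library totals, under which the median turned from 0.07 to −0.28.

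Genes for proteins that act on inflammatory mRNA went both ways, also among close relatives. Zc3h12a (regnase-1), an RNase that cuts cytokine mRNA, was at 14.7, 15.3, 11.8 and 9.52 CPM at 0 h and 126, 123, 126 and 143 CPM at 3 h, a rise of 3.33 ± 0.11 log2. Zfp36 (tristetraprolin) rose by 2.50 and Arid5a, which instead stabilises Il6 mRNA, by 3.58. The close relatives Zfp36l1 and Zfp36l2 fell by 1.96 and 1.72. Over the list 10 of 18 rose and 5 fell, or 7 and 8 with library totals, and the median was 0.41 with TMM. The share of falls with TMM is near the 28.0% of all genes tested.

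Among AP-1, ATF and MAF transcription factors 14 of 22 genes rose and 4 fell (12 and 8 with library totals), with a median of 0.82. Jdp2, a repressor of the AP-1 family, lay at 22.5, 22.3, 22.5 and 18.7 CPM at 0 h and 262, 250.2, 249 and 238 CPM at 3 h, and it rose by 3.54 ± 0.09 log2. Batf2 and Batf rose by 5.65 and 3.10, Junb by 1.94 and Atf3 by 1.20. Jun fell, from 209 ± 15.1 to 98.1 ± 20.3 CPM, and Fos, a gene induced within minutes in many cells, was not called at this time (−0.39 ± 0.32). The other immediate early genes were mixed, with 7 of 17 higher and 6 lower (5 and 7 with library totals, median 0.10 turned to −0.25). Nr4a3, an orphan nuclear receptor, was at 0.416, 0.672, 1.16 and 0.952 CPM at 0 h and 24.9, 23.6, 21.5 and 24.8 CPM at 3 h. Its rise of 4.87 ± 0.28 log2 stood beside falls of 0.93 for its relative Nr4a1, 0.46 for Egr1 and 2.46 for Plk3.

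Of 20 IRF, STAT and JAK genes 16 rose and 2 fell, with 16 and 3 by library totals, and the median was 1.57. Irf1, an activator of interferon-inducible genes, was at 38.3, 45.3, 43.2 and 43.5 CPM at 0 h and 1228, 1094, 1244 and 1214 CPM at 3 h. Irf7, which amplifies interferon production, was at 2.08, 4.2, 3.81 and 4.6 CPM and then 93.9, 127, 134 and 167 CPM. The rises were 4.81 ± 0.09 and 5.16 ± 0.21 log2. Stat2 and Irf9, whose products act together downstream of the interferon receptor, rose by 3.14 and 2.04. Irf3, which is activated by phosphorylation and present beforehand, fell by 0.62, and the corepressor gene Irf2bp2 fell by 3.08, from 153 ± 6.81 to 17.8 ± 4.07 CPM.

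Several regulators of blood cell lineages fell deeply. Of 36 KLF, ID and lineage factor genes 14 rose and 17 fell, 12 of them over 2-fold, and library totals gave 13 and 21 (median −0.25 with TMM). Sox4 was at 26.1, 31.7, 22.8 and 37.3 CPM at 0 h and 3.26, 2.34, 2.07 and 1.35 CPM at 3 h. Lyl1, a blood stem and progenitor cell factor, was at 24, 22, 19.9 and 20.5 CPM and then 0.93, 1.34, 2.85 and 2.43 CPM. They fell by 3.67 and 3.56 log2. The macrophage identity factor gene Maf fell too. Its libraries read 639, 615, 684 and 723 CPM at 0 h and 266, 264, 304 and 314 CPM at 3 h, a fall of 1.21. Cebpa, a driver of myeloid differentiation, fell by 3.06 while its relatives Cebpb and Cebpd rose by 1.22 and 1.65. Id1 and Id3 fell by 2.76 and 1.29. Id2 lost the most CPM of any called gene, from 1140.1, 1075, 1208 and 1203 CPM at 0 h to 638, 649, 796 and 804 CPM at 3 h, although its fall was 0.68 log2. The pioneer factor gene Spi1 (PU.1) rose by 0.71 and Zeb1 by 4.10.

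Antiviral interferon-stimulated genes rose without exception on this list: all 54 were measured, 54 rose, 54 of them over 2-fold, and 54 were also called higher with library totals. The median log2 fold change was 3.99, or 3.91 without replicate 1 at 0 h. Rsad2, which encodes the antiviral enzyme viperin, was at 71.8, 158, 252 and 195 CPM at 0 h and 9021, 7711, 9087 and 10896 CPM at 3 h, the largest gain in CPM of any gene. Ifit1, which binds viral RNA lacking the host cap modification, was at 5.13, 17.3, 28.6 and 18.4 CPM and then 3041, 2888, 3075 and 3359.9 CPM. The rises were 5.76 ± 0.29 and 7.50 ± 0.31 log2, and 5.51 ± 0.17 and 7.17 ± 0.19 without replicate 1 at 0 h. Mx2 rose by 8.22, Oasl1 by 7.52, Cmpk2 by 7.11 and Isg15, a ubiquitin-like modifier, by 5.27. The RNA sensor genes Ifih1 and Ddx58 rose by 5.10 and 3.61. The IFI200 genes Ifi203 and Mndal, which lie in a cluster of close copies and may share tags, were both among the 8 largest gains in CPM.

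Interferon-inducible GTPases, which attack the membranes of vacuoles that hold pathogens, rose in 18 of 18 measured genes, with a median of 5.70, or 5.55 with the 2 genes at 0 counts set to their lower bound. Gbp5 was at 0.693, 2.35, 4.47 and 3.49 CPM at 0 h and 774, 712, 784 and 911 CPM at 3 h, and it rose by 8.20 ± 0.20 log2, or 7.84 ± 0.17 without replicate 1 at 0 h. Iigp1 rose by 7.15, Gbp2 by 5.79, Gbp3 by 6.08 and Irgm2 by 4.52. Some of these genes are near-identical copies, such as Tgtp1 and Tgtp2, and their separate values are uncertain.

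The promoter windows of 3 of these genes are printed with the same capitals, chosen because they hold ISRE-type matches. Ifit1 holds 3 of them, of which 2 overlap (chr19:34640639-34640938, plus strand), Rsad2 holds 1 with 1 κB-type and 1 AP-1-type match (chr12:26456403-26456702, minus strand), and Gbp5 holds 1 with 1 κB-type match (chr3:142496684-142496983, plus strand).
Ifit1: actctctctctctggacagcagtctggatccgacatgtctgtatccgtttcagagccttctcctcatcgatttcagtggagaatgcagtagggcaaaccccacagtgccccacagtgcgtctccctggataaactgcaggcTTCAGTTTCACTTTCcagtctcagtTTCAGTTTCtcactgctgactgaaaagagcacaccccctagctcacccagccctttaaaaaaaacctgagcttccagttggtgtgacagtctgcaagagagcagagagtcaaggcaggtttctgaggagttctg
Rsad2: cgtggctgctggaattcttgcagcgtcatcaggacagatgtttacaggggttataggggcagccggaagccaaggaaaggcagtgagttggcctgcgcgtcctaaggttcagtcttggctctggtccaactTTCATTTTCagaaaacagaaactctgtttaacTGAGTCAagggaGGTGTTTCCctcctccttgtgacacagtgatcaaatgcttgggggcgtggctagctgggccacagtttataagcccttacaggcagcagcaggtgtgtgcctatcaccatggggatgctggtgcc
Gbp5: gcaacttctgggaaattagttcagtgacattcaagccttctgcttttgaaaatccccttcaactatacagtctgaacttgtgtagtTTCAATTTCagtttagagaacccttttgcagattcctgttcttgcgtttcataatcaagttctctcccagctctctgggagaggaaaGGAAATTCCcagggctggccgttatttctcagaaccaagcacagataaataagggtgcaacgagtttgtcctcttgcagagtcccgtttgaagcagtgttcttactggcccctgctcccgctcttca
The ISRE-type motif was in 28 of 52 windows (53.8%) of 42 antiviral genes and in 9 of 11 (81.8%) of 10 GTPase genes. It was in 8.56% of all windows, 7.59% of those of genes tested, 20.4% of those of genes up over 4-fold and 4.89% of those of genes down over 4-fold. Among the other lists searched it was in 28.6% of windows for chemokine genes, 11.4% for NF-κB system genes and 6.06% for mitosis genes. Cytokine genes held it in 1 of 21 windows and clock genes in 0 of 24. The AP-1-type motif was in 7.81% of all windows and 5.19% of those of genes tested. It was in 13.6% of those of genes up over 4-fold and 9.24% of those of genes down over 4-fold. For the CRE-type motif the shares of the same groups, in that order, were 1.79%, 3.09%, 0.831% and 1.63%. The median GC content was 49.7% for antiviral genes and 46% for GTPase genes.

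**Figure D3:**
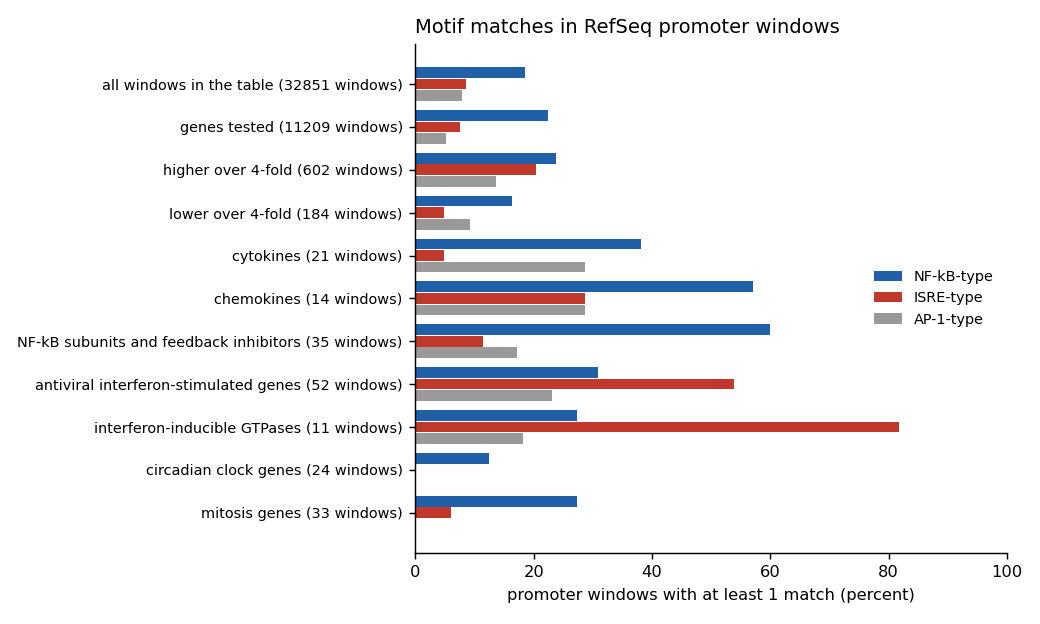
Percent of promoter windows (horizontal) with at least 1 κB-type (blue), ISRE-type (red) or AP-1-type (grey) match, for all windows and for 10 groups of genes (vertical, with the number of windows). The κB-type bar is longest for the NF-κB list and the ISRE-type bar for the GTPase genes; the lists for the clock and mitosis show no AP-1-type match.

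Genes of antigen presentation and costimulation rose in 13 of 15 cases (11 with library totals, with 1 lower), with a median of 0.78. The adhesion molecule gene Icam1 rose by 4.88 log2, the inhibitory ligand gene Cd274 (PD-L1) by 4.47, Cd83 by 3.76 and Cd86 by 1.29. Ciita, the master regulator of MHC class II, rose by 4.00, and the class II genes H2-Ab1 and H2-Aa by 0.73 and 0.67.

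Inflammasome components were raised in part: 10 of 17 genes rose and 3 fell (8 and 7 with library totals), with a median of 0.44. The caspase-11 gene Casp4 rose by 3.93, the pyrin gene Mefv by 4.42, the sensor gene Nlrp3 by 2.50, Casp1 by 1.70 and the pore-forming effector gene Gsdmd by 1.46. Nlrp1b fell by 1.92, the ATP-gated channel gene P2rx7 by 0.92, and the adaptor gene Pycard was not called (0.11 ± 0.09). Among death receptor and BCL2 family genes 15 of 25 rose and 3 fell, or 10 and 9 with library totals, under which the median turned from 0.33 to −0.03. The rises included survival genes, Cflar by 2.98 and the near-identical copies Bcl2a1a, Bcl2a1b and Bcl2a1d by 3.79, 2.46 and 3.73, and also the pro-death gene Bcl2l11 (Bim) by 2.03 and the necroptosis effector gene Mlkl by 1.68. Bcl2 itself fell by 1.57.

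In metabolism the large changes were few and concerned inducible enzymes. Acod1, which makes the antimicrobial metabolite itaconate, was at 6.66, 15.4, 27.6 and 20.5 CPM at 0 h and 2226, 2077, 2286 and 2436 CPM at 3 h, a rise of 7.02 ± 0.27 log2 (6.73 ± 0.18 without replicate 1 at 0 h). On the list of itaconate and tricarboxylic acid cycle genes, Acod1 included, 5 of 22 rose and 2 fell with TMM, but 2 and 15 with library totals, and the median turned from 0.05 to −0.30. With TMM both shares are below those of all genes tested (26.6% and 28.0%). Nos2, the inducible nitric oxide synthase, was at 0.416, 1.01, 2.15 and 0.476 CPM at 0 h and 203, 218, 229 and 278 CPM at 3 h. Ptgs2, the inducible cyclooxygenase of prostaglandin synthesis, was at 0.693, 1.51, 1.82 and 1.74 CPM and then 282, 292, 282 and 396 CPM. Both rose, by 7.84 ± 0.31 and 7.76 ± 0.49 log2, and the downstream synthase gene Ptges by 3.78, while the constitutive Ptgs1 fell by 0.56. The arginine transporter gene Slc7a2 and the cofactor enzyme gene Gch1, which both serve nitric oxide synthesis, rose by 4.05 and 2.00. Of the 14 measured arginine, nitric oxide and polyamine genes 8 rose and 1 fell (5 and 6 with library totals), and of 14 prostaglandin and leukotriene genes 4 rose and 4 fell (3 and 9), which is near the shares of all genes.

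Glycolysis genes rose in 14 of 23 cases and 1 fell, with a median of 0.23 that turned to −0.13 with library totals (8 higher and 6 lower). The clear members were the transporter gene Slc2a6 (3.44 ± 0.11), hexokinase Hk2 (2.02 ± 0.10) and the regulator Pfkfb3 (1.24 ± 0.13). Cholesterol synthesis genes leaned down, with 13 of 24 lower and 2 higher, and 20 and 0 with library totals (median −0.26 with TMM). The falls were small, Dhcr7 by 0.83 and Mvd by 0.77 log2. Among LXR and PPAR genes 5 of 22 rose and 6 fell, near the 26.6% and 28.0% of all genes tested (1 and 12 with library totals, under which the median turned from 0.04 to −0.32), with the receptor gene Pparg lower by 1.43 and Scd2 by 0.91.

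Among stress genes single members moved strongly. Of 25 antioxidant genes 12 rose and 3 fell (7 and 9 with library totals, under which the median turned from 0.20 to −0.16). Slc7a11, the cystine importer, was at 43, 41.6, 37.4 and 42 CPM at 0 h and 434, 342, 330.3 and 341 CPM at 3 h, a rise of 3.14 ± 0.32 log2. Sod2, the mitochondrial superoxide dismutase, rose by 2.74 and the metal-binding Mt2 by 2.13, whereas Gclc and Gclm, the 2 subunits of the first enzyme of glutathione synthesis, fell by 1.51 and 0.71. In the unfolded protein response 6 of 24 genes rose, 3 fell and 15 were not called, shares at or below those of all genes tested (26.6% and 28.0%), while with library totals 2 were higher and 17 lower and the median turned from 0.05 to −0.31. The ER chaperone gene Hspa5 rose by 0.70 and Ppp1r15a by 1.94, while the stress genes Ddit3 (CHOP) and Sesn2 were called lower, with −1.63 and −1.75. Of 20 heat shock genes 11 rose and 2 fell, or 7 and 9 with library totals. The median of this list turned from 0.25 to −0.11 with library totals. Its near-identical members Hspa1a and Hspa1b rose by 2.87 and 4.30. Of 17 measured iron and metal genes 8 rose and 2 fell, or 5 and 7 with library totals. Their median was 0.20 with TMM and −0.16 with library totals. Among them the ceruloplasmin gene Cp rose by 6.39 and the siderophore-binding lipocalin gene Lcn2 by 3.66. The iron exporter gene Slc40a1 fell by 0.56.

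Most clock genes fell. Of 19 measured members 12 fell and 1 rose, the median was −0.92, and library totals gave 17 lower and 1 higher. Usp2, a deubiquitinase with a strong daily rhythm, was at 38, 33.9, 35.4 and 33.8 CPM at 0 h and 2.79, 3.01, 3.37 and 3.51 CPM at 3 h, a fall of 3.48 log2. The repressor genes Per1, Per2 and Per3 fell by 1.71, 2.14 and 1.19, their activator Arntl (BMAL1) by 0.92 and the output factors Tef and Dbp by 1.33 and 1.18. Nfil3, a repressor of clock output and a cytokine-induced gene, rose by 2.66. Clock, Cry1 and Cry2 were not called (0.15 ± 0.08, −0.32 ± 0.17 and −0.18 ± 0.26). The sources used here give no sampling hours, and a change with time of day cannot be told apart from a change with LPS.

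Proliferation genes were already lower at 3 h. Of 36 mitosis genes 30 fell and 0 rose (34 and 0 with library totals), with a median of −0.87, or −0.84 and 30 falls without replicate 4 at every time. Kif23, a kinesin of cell division, was at 133, 125, 99.5 and 104 CPM at 0 h and 30, 33.2, 38.6 and 23.2 CPM at 3 h. Cdc6, which loads the replicative helicase, was at 13.2, 12.1, 12.7 and 12.2 CPM at 0 h and 1.86, 3.34, 1.56 and 2.43 CPM at 3 h. The falls of 1.88 and 2.39 log2 separated the times in both genes. Of 37 DNA replication genes 23 fell and 0 rose (median −0.59), among them E2f2 by 2.37 and Ccne2 by 1.80, whereas Pcna and Mcm6 were not called (0.06 ± 0.07 and −0.03 ± 0.08). Among G1 regulators 8 of 24 rose and 11 fell (7 and 13 with library totals). Cyclin D2 (Ccnd2) rose by 2.71 and cyclin D1 (Ccnd1) fell by 1.05, the CDK inhibitor gene Cdkn1a (p21) rose by 2.41, and Myc fell by 2.27.

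Growth arrest genes and partners of MAX, the dimer partner of MYC, moved apart. Gadd45b, a growth arrest gene, was at 8.46, 7.89, 11.3 and 8.72 CPM at 0 h and 159, 140.5, 151 and 145 CPM at 3 h, a rise of 4.03 ± 0.10 log2, while Gadd45a fell (−2.62 ± 0.21). Mnt, a repressor that pairs with MAX, was at 43.4, 43, 42.9 and 43.5 CPM at 0 h and 4.65, 7.35, 8.81 and 3.78 CPM at 3 h, a fall of 2.79 log2, while Mxd1, another partner of MAX, rose by 3.43.

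**Figure D4:**
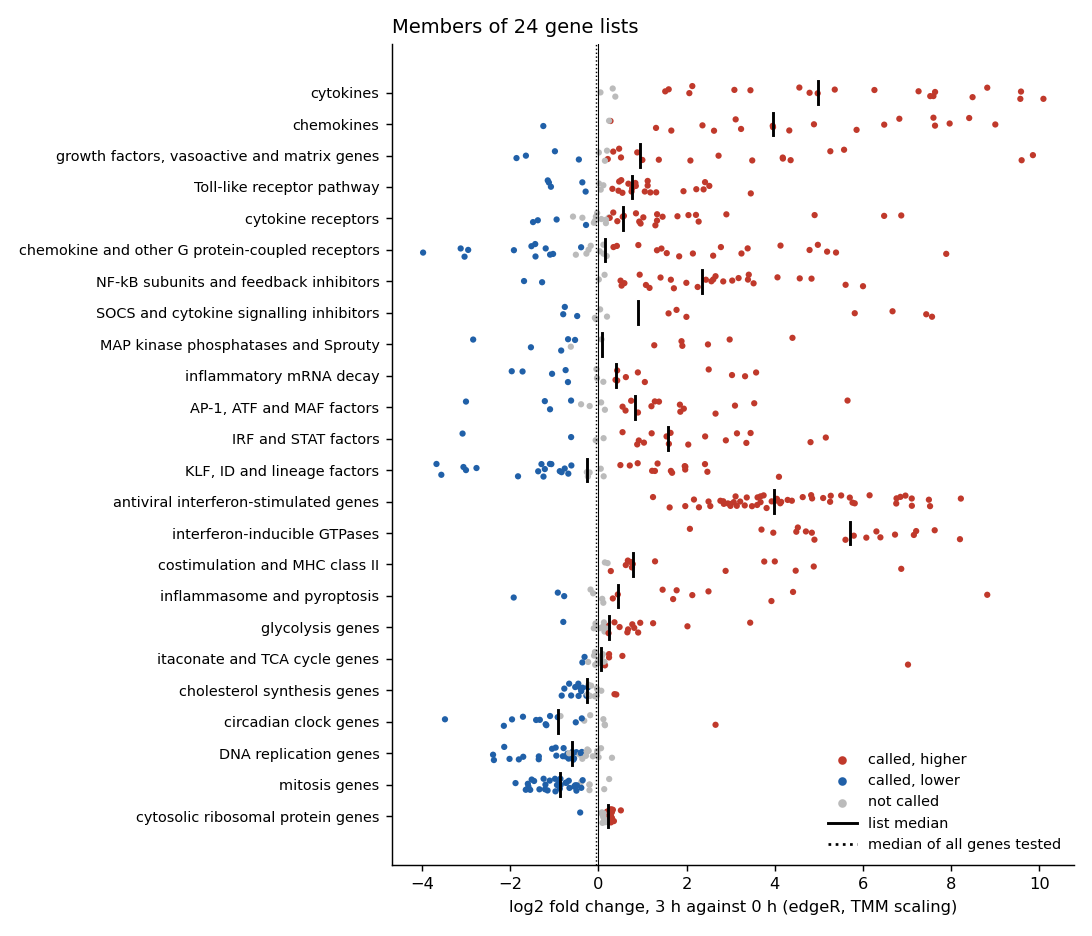
Log2 fold change from 0 h to 3 h (horizontal) of each measured member of 24 gene lists (vertical), red where called higher, blue where called lower and grey where not called, with a bar at each list's median and a dotted line at the median of all genes tested. The antiviral and GTPase lists lie wholly to the right of 0, the mitosis list lies mostly to the left, and the receptor, phosphatase and lineage factor lists spread to both sides.

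Housekeeping lists mark the limit set by the scaling. Cytosolic ribosomal protein genes had 27 of 42 called higher with TMM at a median of 0.21, and 0 higher and 14 lower with library totals at −0.15. Mitochondrially encoded genes had 9 of 13 higher and a median of 0.29, and 0 higher and a median of −0.07 with library totals. Nuclear respiratory chain genes turned from 0.11 to −0.24 and lysosome genes from 0.13 to −0.23. For these 4 lists no direction is given here.

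Some genes went from 0 to 3 counts over the 4 libraries at 0 h to over 200 at 3 h. Itgb8, an integrin subunit that activates latent TGF-β, had 0 counts in the 4 libraries at 0 h and 474 at 3 h, at least 224-fold higher against a floor of 3 counts over the group. Shisa3 had 0 and 428 counts, at least 204-fold higher. The adenosine receptor gene Adora2a had 1 and 276 counts, a ratio of 395 (95% interval 70.3 to 15660.0), and the serpin gene Serpina3f 1 and 201, a ratio of 288 (95% interval 51 to 11420.0). The zinc finger gene Zfp811 had 3 counts at 0 h and 217 at 3 h, a ratio of 104 (95% interval 35 to 506). The intervals are exact and cover counting error only. In the other direction Rtn4rl1, a relative of the Nogo receptor, went from 85 counts to 1, a ratio of 59.4 (95% interval 10.4 to 2373). BC043934 went from 20 counts to 2 and the histone gene Hist1h2br from 17 to 1, with ratios of 6.99 (95% interval 1.7 to 61.7) and 11.9 (95% interval 1.86 to 496), and the call of Hist1h2br was lost without replicate 2 at 3 h (−2.64).

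The ends of the ranking also held genes with less familiar roles in the LPS response. Rnd1, an atypical small GTPase, and the collagen gene Col27a1 rose by 8.42 ± 0.19 and 8.26 ± 0.33 log2 from 9 and 4 counts at 0 h. Rhov, another atypical small GTPase, fell by 3.71, Klhl6 by 3.22, Ccsap by 3.22, Bcl7a by 3.19, Ier5l by 3.17 and Pald1 by 3.13. In CPM the largest losses after Id2 and Maf were those of Lhfpl2, from 488, 411, 454 and 473 CPM at 0 h to 89, 80.2, 94.4 and 77.2 CPM at 3 h, and of Rgs2, a brake on G protein signalling (by 1.36 log2), Rab7b (by 1.54) and Mef2a (by 1.36). The nuclear RNA Neat1 fell by 0.61, a call that was lost without replicate 2 at 0 h (−0.56), without replicate 1 or 2 at 3 h (−0.50 and −0.59) without replicate 2 or 3 at all times (−0.50 and −0.64) and with all 40 libraries in the fit (−0.61).

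Mir155hg, the host transcript of miR-155, was among the 12 largest rises. It was at 0.139, 0.336, 0.166 and 0.159 CPM at 0 h and 139, 123, 134 and 137 CPM at 3 h, 9.23 ± 0.30 log2 from 5 counts. The tags count this polyadenylated host RNA and not the mature microRNA. The 2 mature strands, read from the RefSeq table of GRCm38.p6, are printed with the seed (bases 2 to 8) in capitals because a strand is read by its seed and the seeds of the pair differ. The 5p strand lies at chr16:84714143-84714165 and the 3p strand at chr16:84714182-84714202, both on the plus strand.
miR-155-5p: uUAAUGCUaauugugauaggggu
miR-155-3p: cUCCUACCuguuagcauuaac

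Whether the 3 h level was left by 6 h was read from the test of 6 h against 3 h, in which 2481 genes were higher (20.4%) and 2658 lower (21.9%). It shares the 3 h libraries with the comparison above, so the 2 sets of values are given side by side. Antiviral genes went on rising, with 48 of 54 higher at 6 h than at 3 h and 0 lower, and GTPase genes with 17 of 18. Cytokine genes had 6 higher and 7 lower of 23, and NF-κB system genes 8 and 12 of 30. For mitosis genes 34 of 36 were lower again.

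Single genes show these courses. From 3 h to 6 h Cish fell (log2 −3.21 ± 0.15) after its rise of 7.57, and so did Adamts4 (−2.64 ± 0.10) after 9.85, Cxcl1 (−2.62 ± 0.33) after 7.63 and Nr4a3 (−2.28 ± 0.23) after 4.87. Tnf, Il1b, Il6 and Nfkbia were not called between 3 h and 6 h (−0.30 ± 0.19, −0.26 ± 0.25, −0.08 ± 0.35 and −0.04 ± 0.08). Nos2 rose further by 1.79, Irf7 by 1.70, Il1rn by 1.45 and Rsad2 by 0.64. Id1 and Maf, which had fallen by 3 h, rose by 0.81 and 1.70, while Sox4 and Kif23 fell again (−4.68 ± 0.70 and −1.47 ± 0.18). Sox4 entered this step with 41 counts over the 3 h libraries, so the size of its further fall is uncertain.

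**Figure D5:**
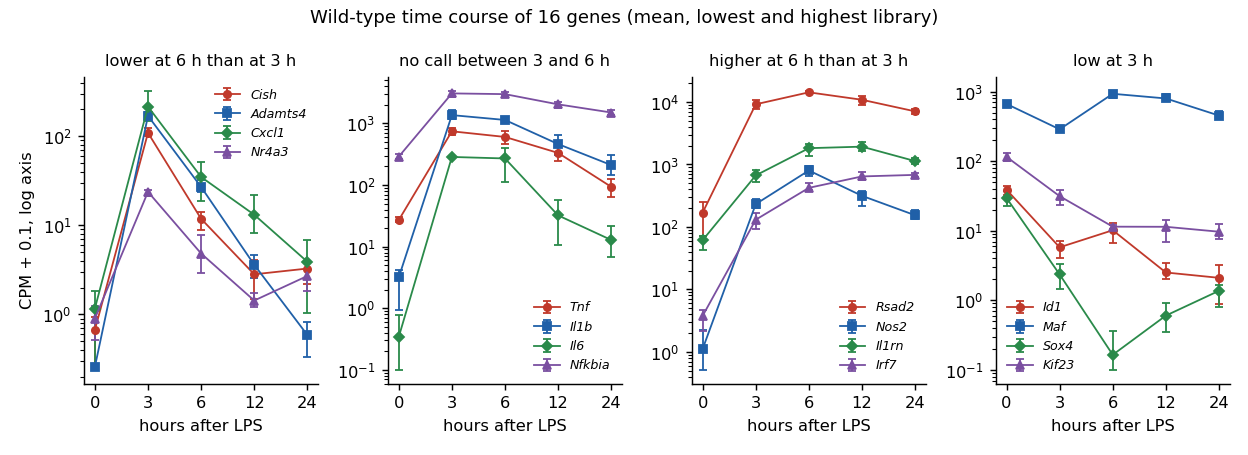
Mean level of 16 genes in WT cells (vertical, CPM plus 0.1, log axis) at 0, 3, 6, 12 and 24 h of LPS (horizontal, evenly spaced), with bars from the lowest to the highest of 4 libraries. The panels group genes by the test of 6 h against 3 h: Cish, Adamts4, Cxcl1 and Nr4a3 drop after 3 h, Rsad2, Nos2, Il1rn and Irf7 rise from 3 h to 6 h, and, among genes low at 3 h, Maf and Id1 are higher at 6 h and Sox4 and Kif23 lower.

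The 3 h response of cells with LysM-Cre was compared with that of WT cells in 1 fit of 16 libraries. In a fit of the 20 KO libraries alone, 5853 of 12037 genes were called (48.6%). The test of the difference in response called 0 of 12165 genes with edgeR (0.0%). The unadjusted p was below 0.05 for 342 of these genes. That is a smaller share than the 0.05 expected if no gene differed. With DESeq2 there were 2 calls, Plk2 and Zfand5, named after their values were seen. For Tnf the change was 4.98 ± 0.11 log2 in KO and 4.79 ± 0.23 in WT, for Il6 10.87 ± 0.38 and 10.09 ± 0.77, and for Rsad2 6.28 ± 0.17 and 5.76 ± 0.29. These changes come from separate fits of the 20 libraries of each genotype. The fit of 16 libraries, with its own filter, scaling and spread, gave differences in response (KO minus WT) of 0.21 ± 0.13, 0.80 ± 1.14 and 0.53 ± 0.40. Standard errors from different fits are not directly comparable. A test that calls no gene does not show that the responses are equal. Both responses are taken against the 0 h libraries of their own genotype.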

How the data were processed

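The deposited table holds RSEM expected counts, all whole numbers, for 57010 gene IDs. Named in the submitters' processing notes are the build GRCm39, the aligner STAR (2.7.10a), the quantifier RSEM (1.3.3), cutadapt (3.7), FastQC (0.11.9) and UMI-tools (1.1.2). The sources used here give no annotation release, strand setting or use of UMIs. Symbols of 52029 IDs came from a GENCODE table of GRCm38 (98.6% of tested genes), and promoter sequences came from RefSeq GRCm38.p6, matched by symbol. All 20 WT libraries were fitted with edgeR 4.0.16 in R 4.3.3 (quasi-likelihood F test, TMM, robust). The fit kept genes that passed filterByExpr at a minimum count of 10, tested 3 h minus 0 h, and adjusted p-values by Benjamini and Hochberg over all genes. Calls are at 0.05. The scripts were checked on simulated counts. The standard error is the log2 fold change divided by the root of F. The comparison with KO cells was fitted on 16 libraries.

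The genes named are Tnf, Il1b, Il6 and Otulin, the 12 highest and 12 lowest log2 fold changes (at least 5 CPM in the higher group and more than 3 counts in the lower), the called genes from or to 0 to 3 counts, the 8 largest gains and losses in CPM, and members of gene lists. The members and lists were chosen with earlier results of these data known. Of the genes this rule names, 3 are not reported here. Alternatives were DESeq2 1.42.0, limma 3.58.1 (voom), other scalings, filters and sets of libraries, a replicate block, each library left out, and a test against a 1.5-fold change. Intervals and floors cover counting error only.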

Additional observations from a re-analysis of the deposited data

Results flagged for a closer look

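A library was marked where its gap to the nearest of the other 3 exceeded, as a share of the group's range, Dixon's 95% critical value, which chance passes in about 1 of 20 groups. Of 90 groups of 4 libraries, 9 were marked. At 3 h, replicate 4 was the highest for Adamts4 (188 CPM), Cd40 (788 CPM), Zc3h12a (143 CPM) and Ptgs2 (396 CPM) and the lowest for Il6 (269.8 CPM). Replicate 1 at 3 h was the highest for Clec4e (884 CPM) and Slc7a11 (434 CPM). At 0 h, replicate 4 was the lowest for Jdp2 (18.7 CPM) and replicate 2 the highest for Mir155hg (0.336 CPM, from 2 counts). In each of these genes the 2 times did not overlap.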

How the results depend on the processing

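The number of genes called ranged from 5900 (a minimum count of 30) to 8756 (library totals only) over the other tools, scalings, filters and library sets, and fell to 2880 in the test against a 1.5-fold change (1558 higher and 1322 lower). The balance depended on the scaling, with 1863 higher and 6893 lower by library totals and 2238 and 5301 by upper quartile. Leaving out single libraries, or 1 replicate number at all times, gave 5785 to 6446 calls, 2897 to 3157 higher and 2737 to 3300 lower. The difference between genotypes in the 3 h response was called for 2 genes with DESeq2, for 4 without a filter (Ets2, Gdf15, Rpl3-ps1 and Gm42573, all with KO minus WT above 0) and for 0 to 1 when a library was left out (1, Cxcl10, without WT replicate 1 at 0 h). With library totals the sign turned to −0.12 for Cox6b1, −0.095 for Uqcrfs1, −0.0062 for Rps9, −0.0076 for mt-Nd4, −0.0079 for mt-Nd4l and −0.29 for Otulin, and with upper quartile scaling to −0.14 for Otulin. This follows from the scaling, which lowers every fold change. Over the single genes, 3559 values kept direction and call, 30 lost the call and these 7 turned.

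Replicate numbers were not taken as pairs, since same-numbered 0 h and 3 h libraries deviated together with correlations of 0.180, 0.134, 0.0866 and 0.330, not all above 0.1. Each of these 8 libraries correlated best with its own number, as a hint from the data. A replicate block gave 7055 calls (3432 higher and 3623 lower), 5558 between 6 h and 3 h, and 0 for the genotype difference. Precision is limited by 4 libraries a group, and genes that did not pass the filter on low counts over the 20 WT libraries were not tested.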
